A study of Mus musculus with 32 samples.

Results

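S100a1, S100a4, S100a6, S100a10, S100a11 and S100a13 are S100 genes that are widely expressed outside granulocytes, and they were followed here through the cell types of cultured mouse bone marrow. They were chosen by their gene symbol, as 6 of the 31053 genes in the count matrices, and none of them was used to name a cell type. The cells were bone marrow-derived stromal cells grown to confluence and then kept in osteogenic medium with ascorbic acid, β-glycerophosphate and dexamethasone (BMSC-OBs). They came from 77 Diversity Outbred mice, an outbred stock made from several inbred founder strains, and cells of 4 or 5 mice were mixed in each of 16 pools before droplet-based single-cell RNA sequencing. Every pool had the same culture and there was no treated or mutant group, so the comparisons below are between cell types of the same pools. The mouse behind each cell was not resolved, and a value of a pool is therefore an average over its mice, whose ages and sexes were not used.

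S100 proteins are small calcium-binding proteins with a pair of EF-hand motifs, and most of them act as dimers that change shape on binding calcium and then grip a target protein. S100A8 and S100A9 are known as the calprotectin of neutrophils, whereas the 6 genes described here are known from fibroblasts, smooth muscle, macrophages and many other cells. S100A10 differs from the rest in that it does not bind calcium and sits with annexin A2 at membranes and the submembranous cytoskeleton. S100A4 binds non-muscle myosin heavy chain, S100A6 (calcyclin) binds annexins and the calcyclin-binding protein, and S100A11 binds annexin A1, while S100A13 takes part in the release of FGF1 and IL-1α and S100A1 is best known from calcium handling in heart and skeletal muscle.

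All 6 genes lie on mouse chromosome 3 (GRCm38). S100a1 (90511034 to 90514392, minus strand) and S100a13 (90514435 to 90524581, plus strand) point away from each other with 42 bases between them. S100a4 (90603771 to 90606045, plus strand) and S100a6 (90612882 to 90624181, plus strand) have 6836 bases between them. S100a5 (90608523 to 90611780, plus strand) lies within that stretch. S100a11 (93520488 to 93526287, plus strand) and S100a10 (93555080 to 93564643, plus strand) form a further pair with 28792 bases between them. The gene model Gm42674 overlaps S100a4 on the same strand and had 0 UMIs in the gated cells, and S100a11 has a processed pseudogene on chromosome 12 that is not among the counted genes, so that reads shared with that copy could not be told apart.

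The promoters of the neighbouring members are printed here because the genes share a cluster and, for S100a1 and S100a13, share most of the promoter itself. Each window runs from 250 bases before to 50 bases after the RefSeq start (GRCm38.p6), written 5′ to 3′ on the strand of the gene. Capitals mark a core promoter element (TATAAA), an AP-1 motif (TGAGTCA), a motif of Sp1-type factors (GGGCGG) or the motif of factor NF-Y (CCAAT) on either strand, and RefSeq windows were at hand for 5 of the 6 genes, without S100a10. The windows of S100a1 (chr3:90514281-90514580, minus strand) and S100a13 (chr3:90514185-90514484, plus strand) overlap over 204 bases and hold none of these letters. The S100a4 window (chr3:90603520-90603819, plus strand) holds TATAAA at position -31, letters found in 13.6% of 32851 promoters of the same length. The S100a6 window (chr3:90612644-90612943, plus strand) holds CCAAT on the minus strand at -228, found in 37.4% of promoters. The S100a11 window (chr3:93520246-93520545, plus strand) holds TGAGTCA at -136 and -38, letters found in 5.2% of promoters, and GGGCGG at -64, -52 and -24, found in 35.7%. A match is a description of the letters and not a tested binding site.
S100a1: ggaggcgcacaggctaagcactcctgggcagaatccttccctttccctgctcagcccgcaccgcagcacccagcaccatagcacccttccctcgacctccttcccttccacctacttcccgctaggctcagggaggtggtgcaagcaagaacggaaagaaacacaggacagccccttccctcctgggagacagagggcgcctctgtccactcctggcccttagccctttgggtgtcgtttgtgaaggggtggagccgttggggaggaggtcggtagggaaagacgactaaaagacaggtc
S100a13: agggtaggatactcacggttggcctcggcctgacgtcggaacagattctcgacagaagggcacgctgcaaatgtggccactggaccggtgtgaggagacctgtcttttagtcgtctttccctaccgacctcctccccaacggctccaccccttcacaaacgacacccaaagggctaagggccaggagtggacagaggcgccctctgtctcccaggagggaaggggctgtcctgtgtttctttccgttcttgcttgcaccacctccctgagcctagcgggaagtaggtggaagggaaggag
S100a4: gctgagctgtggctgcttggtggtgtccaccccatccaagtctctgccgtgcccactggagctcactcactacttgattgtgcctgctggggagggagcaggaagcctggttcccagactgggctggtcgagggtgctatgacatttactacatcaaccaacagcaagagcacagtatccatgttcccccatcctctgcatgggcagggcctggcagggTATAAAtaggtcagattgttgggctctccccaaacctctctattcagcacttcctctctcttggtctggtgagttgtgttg
S100a6: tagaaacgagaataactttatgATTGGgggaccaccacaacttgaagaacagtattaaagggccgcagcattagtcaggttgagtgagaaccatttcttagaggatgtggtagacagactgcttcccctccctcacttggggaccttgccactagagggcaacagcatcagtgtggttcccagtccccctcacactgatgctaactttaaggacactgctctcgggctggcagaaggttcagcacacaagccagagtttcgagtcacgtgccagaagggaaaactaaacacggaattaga
S100a11: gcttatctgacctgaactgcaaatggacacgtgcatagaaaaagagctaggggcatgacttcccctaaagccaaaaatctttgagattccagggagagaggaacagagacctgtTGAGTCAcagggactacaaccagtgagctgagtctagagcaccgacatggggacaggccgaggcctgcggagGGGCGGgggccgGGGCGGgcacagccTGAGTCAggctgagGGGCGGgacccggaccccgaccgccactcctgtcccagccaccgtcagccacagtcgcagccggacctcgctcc

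The matrices of the sequencing run used here held 107853 cell barcodes, of which 88909 (82.4%) passed the limits on genes per cell and on mitochondrial and ribosomal protein transcripts. A pool had between 53990642 and 100777353 UMIs in all, and the median depth of its kept cells ran from 2782 UMIs in pool 13 to 15273 in pool 5. Panels of marker genes placed 54178 cells (60.9% of those kept) in 14 classes, and 32220 passed no gate. A further 849 passed gates of unlike groups of classes and 1662 carried markers of stroma and leukocytes together, and these were set aside. Pairs of pools shared 3 to 28 barcodes. The stromal classes were 12014 LMP-like cells (late mesenchymal progenitors, with Acta2, Tagln and Aspn), 8129 OBP-like cells (osteoblast progenitors), 7706 osteoblast-like cells (Bglap and its copies), 5055 Ocy-like cells (osteocyte markers Sost, Dmp1 and Phex) and 7404 MALP-like cells (marrow adipogenic lineage precursors, with Adipoq). The leukocyte classes were 10001 macrophage-like, 958 monocyte-like, 535 osteoclast-like, 1420 granulocyte-like, 382 T-cell-like, 182 B-cell-like and 244 basophil- or mast-like cells, and 73 endothelial-like and 75 glial-like cells were also found. All levels are UMIs of a gene per 10,000 UMIs of all genes, summed over the cells of a class in a pool with at least 20 such cells, so that a level is a share of the RNA counted and not an amount per cell.

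Among the gated cells, LMP-like cells held more than their share of the S100a4 and S100a6 message. They gave 27.6% of all UMIs of the gated cells but 54.4% of those of S100a4 and 57.8% of those of S100a6, as well as 48.8% of those of S100a11 and 40.1% of those of S100a10. MALP-like cells gave 24.5% of the UMIs of S100a13 against 10.1% of all UMIs. S100a1 went the other way, with 14.0% of its UMIs in LMP-like cells.

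**Figure D1:**
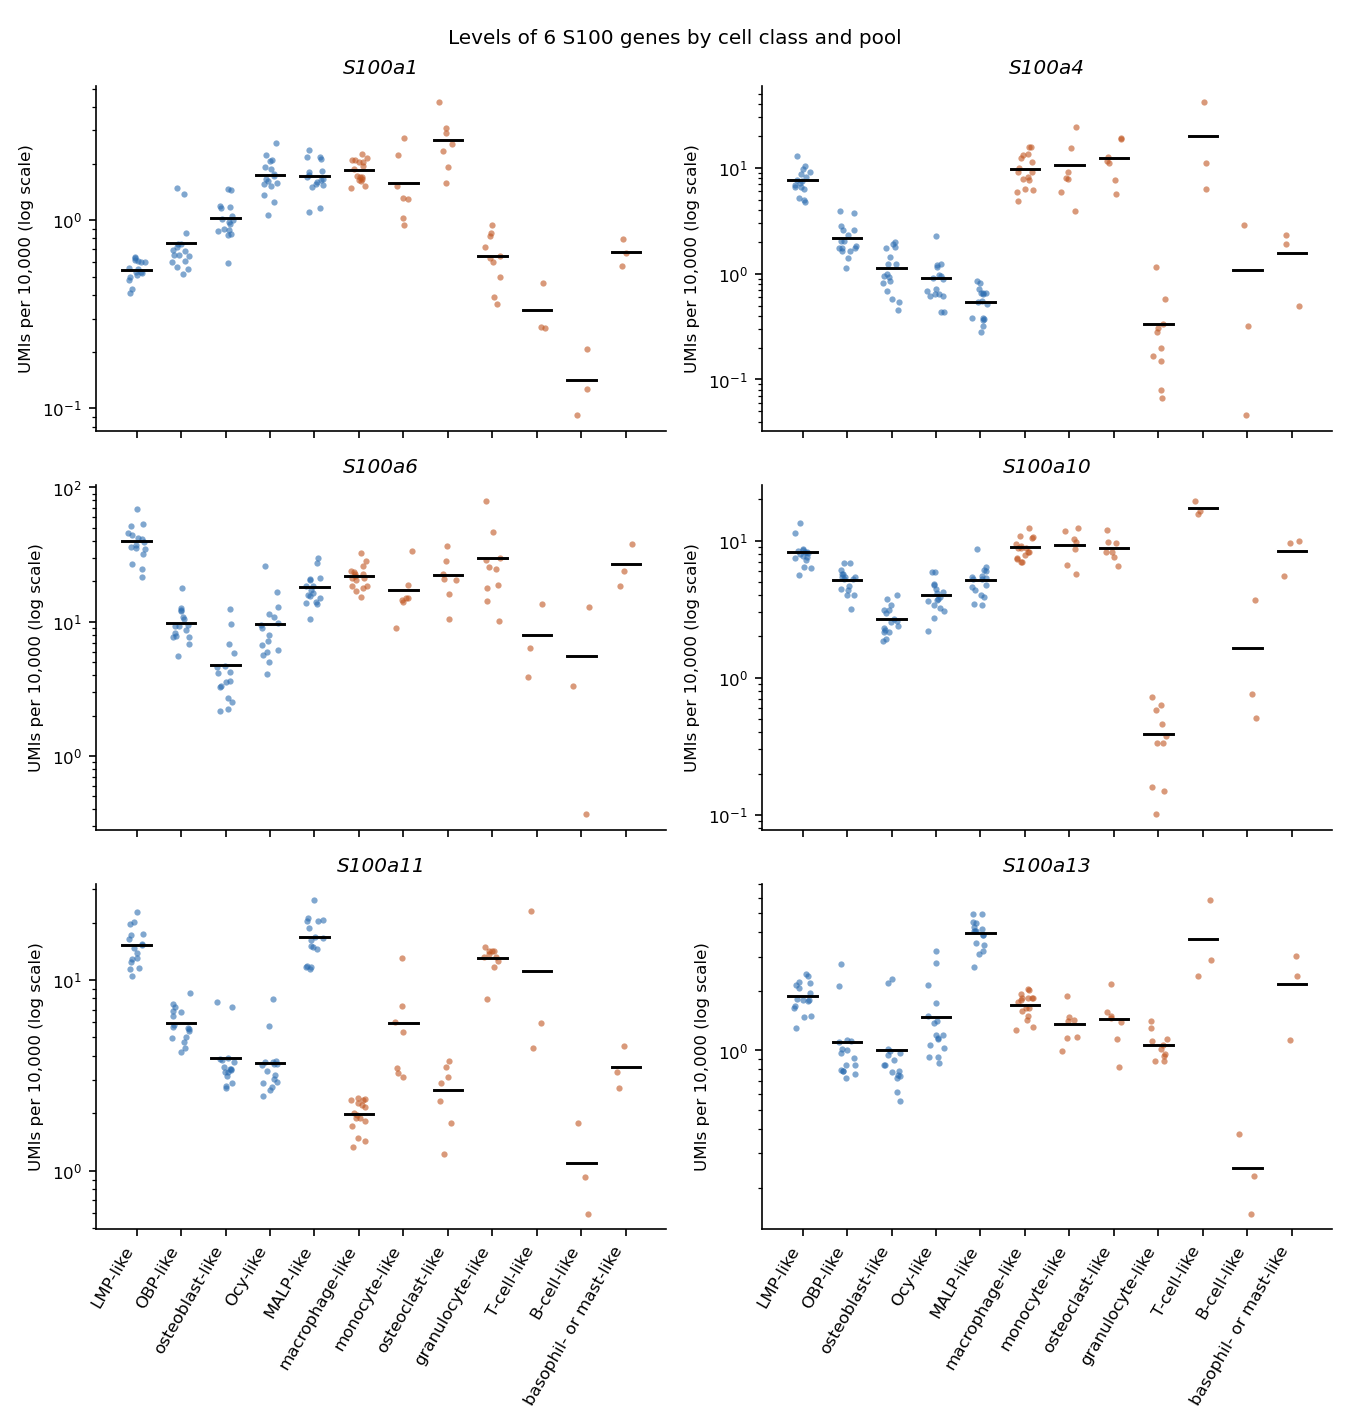
Level of each of the 6 S100 genes (UMIs per 10,000, log axis) in 12 cell classes, with 1 point per pool and a bar at the mean over pools; stromal classes are blue and leukocyte classes orange. S100a4, S100a6, S100a10 and S100a11 step down from LMP-like to osteoblast-like cells, S100a1 steps up, and granulocyte-like cells are low for S100a4 (mean 0.331) and S100a10 (mean 0.386) while T-cell-like cells are high for them.

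S100a4, long used as a fibroblast marker, had a level of 4.76 in the lowest, 7.31 in the median and 12.8 in the highest of 16 pools in LMP-like cells. Macrophage-like cells had 4.91, 9.15 and 15.8, and MALP-like cells 0.281, 0.549 and 0.844. The ranges of LMP-like and MALP-like cells were thus far apart, whereas those of LMP-like and macrophage-like cells overlapped over most of their length. In the order of class means, T-cell-like cells stood first at 19.9, but their 3 pools ran from 6.26 to 42.3 and did not stand clear of osteoclast-like (12.4 ± 5.08, SD, n = 7), monocyte-like (10.7 ± 7.04, n = 7), macrophage-like (9.84 ± 3.47, n = 16) or LMP-like cells (7.67 ± 2.15, n = 16). The clear step came next, between LMP-like cells and OBP-like cells (2.19 ± 0.790, n = 16), whose ranges did not overlap. Below it the osteoblast-like mean was 1.13 ± 0.509, the Ocy-like mean 0.901 ± 0.448 and the MALP-like mean 0.543 ± 0.177. The OBP-like level was above the osteoblast-like level in 15 of 16 pools. Basophil- or mast-like (1.57 ± 0.958, n = 3) and B-cell-like cells (1.09 ± 1.59, n = 3) fell between these classes in the full order. In that full order, from OBP-like cells downward, the means of adjacent classes lay within the larger SD of each other.

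S100a6 ranged in LMP-like cells from 21.5 through a median of 38.2 to 68.7, in osteoblast-like cells from 2.18 through 3.87 to 12.5, and in macrophage-like cells from 15.4 through 21.6 to 32.3. Osteoblast-like cells lay below LMP-like cells with no overlap, and macrophage-like cells lay between them. The mean fell by class from LMP-like (39.7 ± 11.8) to MALP-like (18.0 ± 5.01), OBP-like (9.78 ± 2.90), Ocy-like (9.66 ± 5.41) and osteoblast-like cells (4.74 ± 2.81, SD, n = 16 pools each). OBP-like and Ocy-like cells could not be separated, with the OBP-like level higher in 10 of 16 pools. Among leukocytes the granulocyte-like mean was 29.6 ± 20.2 (n = 10), with pools from 10.2 to 79.5.

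S100a10, the annexin A2 partner, was at 5.63, 8.11 and 13.5 (lowest, median and highest pool) in LMP-like cells and at 6.92, 8.84 and 12.4 in macrophage-like cells, which overlapped almost fully. Granulocyte-like cells, at 0.101, 0.357 and 0.720, lay below every pool of those classes. T-cell-like cells had the highest mean (17.2 ± 2.05, n = 3), and their 3 pools, from 15.6 to 19.5, lay above all pools of the monocyte-like class next in the order. On the osteogenic side the means stepped from 8.23 ± 1.89 in LMP-like to 5.17 ± 1.03 in OBP-like and 2.70 ± 0.645 in osteoblast-like cells (n = 16), and OBP-like and MALP-like cells (5.14 ± 1.30) did not differ beyond their spread.

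S100a11, a partner of annexin A1, was at 10.5, 14.99 and 22.8 in LMP-like cells and at 11.4, 16.4 and 26.3 in MALP-like cells. Macrophage-like cells had 1.34, 1.98 and 2.41. The LMP-like and MALP-like ranges coincided, and no macrophage-like pool reached them. Granulocyte-like cells came next (13.0 ± 2.00, n = 10), with LMP-like cells higher in 8 of the 10 pools that held both. T-cell-like cells (11.1 ± 10.3, n = 3) followed, with a wide spread. After them came monocyte-like (5.94 ± 3.53, n = 7), OBP-like (5.92 ± 1.21), osteoblast-like (3.88 ± 1.44) and Ocy-like cells (3.68 ± 1.36, n = 16 each). Among the stromal and leukocyte classes with at least 7 pools, macrophage-like cells had the lowest mean of S100a11, at 1.98 ± 0.352.

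S100a1 and S100a13, the pair that shares a promoter region, had different orders. S100a1 was at 0.409, 0.543 and 0.638 (lowest, median and highest pool) in LMP-like cells, at 1.06, 1.69 and 2.56 in Ocy-like cells and at 1.47, 1.79 and 2.24 in macrophage-like cells. LMP-like cells were therefore the lowest of the stromal classes for S100a1 with no pool in common with Ocy-like, MALP-like or macrophage-like cells. Osteoclast-like (2.66 ± 0.884, n = 7), macrophage-like (1.84 ± 0.242), Ocy-like (1.74 ± 0.378) and MALP-like cells (1.73 ± 0.345, n = 16 each) could not be ranked against their spread. S100a13 had its highest mean in MALP-like cells at 3.95 ± 0.646, followed among the classes with 16 pools by LMP-like (1.90 ± 0.337), macrophage-like (1.71 ± 0.240), Ocy-like (1.48 ± 0.683), OBP-like (1.10 ± 0.551) and osteoblast-like cells (1.00 ± 0.510, n = 16 each). T-cell-like cells had an S100a13 mean of 3.70 ± 1.86 (n = 3), within its SD of MALP-like cells.

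Rarer classes filled in the picture with few cells. Endothelial-like cells, summed over all pools, had 47.3 UMIs of S100a6 per 10,000 (exact Poisson interval 46.0 to 48.6 at 95%) and 18.9 of S100a11 (18.1 to 19.8). Glial-like cells had 13.6 of S100a4 (12.6 to 14.6). These intervals cover counting error only, since no pool held enough endothelial-like cells and 1 pool held enough glial-like cells for a spread over pools. In B-cell-like cells 3 pools gave S100a1 a mean of 0.142 ± 0.0585 and S100a13 a mean of 0.252 ± 0.116, the lowest class means of both genes. The S100a1 levels rest on 12, 6 and 2 UMIs in pools 6, 10 and 12, and free RNA was not subtracted. The B-cell marker panel made up 4213 of 10,000 UMIs in this class, which lowers the share of every other gene.

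Pools 1 and 2 stood apart in the osteogenic classes. In osteoblast-like cells they had the highest 2 levels of 16 for S100a6, S100a10, S100a11 and S100a13, as did 15.8% of 9064 genes, and in Ocy-like cells for all members except S100a1, as did 10.7% of 8321 genes. S100a13 of osteoblast-like cells was at 2.32 and 2.20 in pools 1 and 2, while the other 14 pools lay between 0.554 and 1.02. S100a11 was at 7.71 and 7.19 there, against 2.73 to 3.92 in the others, and S100a6 at 9.56 and 12.5 against 2.18 to 6.88. The collagen gene Col1a1 was lower in the same pools, at 337 and 253 against 417 to 571. The class marker Bglap, at 249 and 217, lay within the 153 to 350 of the other pools. In OBP-like cells Bglap was higher in pools 1 and 2, at 32.4 and 33.9 against 12.5 to 23.5. Pools 1 and 2 were also the highest for S100a1 and S100a13 in OBP-like cells (as for 10.2% of genes there), for S100a11 in LMP-like (11.5%) and for S100a6 in MALP-like cells (2.05%), and for no member in macrophage-like cells (8.27%). Without them no level moved by more than its SD over pools, and their part in the log2 changes, the relations over pools and the spread between pools is given below where leaving them out changed a call, or moved a called value or a spread by over 1.5 times. The reason they stand apart was not tested.

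In osteoblast-like cells 5 of the 6 genes were lower than in LMP-like cells and S100a1 was higher. The classes are gates on cells harvested together, so a fall or rise is a difference between classes and not a course in time. From LMP-like to osteoblast-like cells, S100a6 fell 6.47-fold (log2 change -2.69, SE 0.10), S100a4 fell 5.11-fold (-2.35, SE 0.16), S100a11 2.86-fold (-1.52, SE 0.06), S100a10 2.17-fold (-1.12, SE 0.07) and S100a13 1.43-fold (-0.52, SE 0.09), while S100a1 rose 2.62-fold (1.39, SE 0.08). Each direction was seen in the levels of 16 of 16 pools. All 6 passed the quasi-likelihood test of edgeR, blocked by pool (adjusted p from 6.83e-16 to 1.85e-05), where 78.5% of 12133 genes tested were called (37.3% higher and 41.2% lower), so that being called was common for any gene between these classes. Genes with a larger change than that of S100a6 made up 3.90% of those tested, and those with a larger change than S100a13 45.4%.

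The same directions were seen in OBP-like cells. Against LMP-like cells, S100a6 fell 3.22-fold, S100a4 2.84-fold, S100a11 2.05-fold, S100a13 1.45-fold and S100a10 1.26-fold, and S100a1 rose 1.67-fold, with all 6 called by edgeR (adjusted p from 7.44e-17 to 2.06e-05) beside 77.8% of 12150 genes. The levels of S100a1 and S100a13 followed these directions in 15 of 16 pools and those of the other 4 genes in 16. The levels stepped down in the order LMP-like, OBP-like, osteoblast-like in 16 of 16 pools for S100a6, S100a10 and S100a11, in 15 for S100a4 and in 12 for S100a13, and in no pool for S100a1. For S100a13 the log2 change from LMP-like cells was -0.53 (SE 0.09) in OBP-like and -0.52 (SE 0.09) in osteoblast-like cells, and its level was higher in OBP-like than in osteoblast-like cells in 13 of 16 pools. OBP-like and osteoblast-like cells were not tested against each other. Osteoblast-like cells could also pass the OBP-like gate, and their summed OBP-like panel was 22.2 per 10,000, against 34.6 in OBP-like cells.

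Most of the partner genes also fell. Of 25 partner genes tested, 2 were higher and 21 lower in osteoblast-like cells (median log2 change -0.74, against -0.03 over all genes), and 3 were higher and 20 lower in OBP-like cells. Annexin genes Anxa1 (-2.31, SE 0.07) and Anxa2 (-0.98, SE 0.06), the scaffold gene Ahnak (-1.01, SE 0.06), the myosin gene Myh9 (-0.78, SE 0.05) and Cacybp (-1.09, SE 0.06) all fell in osteoblast-like cells. Fgf1, whose product S100A13 helps to release, was among the higher ones, by 3.86-fold in osteoblast-like (1.95, SE 0.17) and 2.24-fold in OBP-like cells (1.17, SE 0.16), where S100a13 was lower. S100b, better known from glia and chondrocytes, was 15.5-fold lower by edgeR after TMM. Its levels, which are not scaled by TMM, were 0.427 ± 0.197 in LMP-like and 0.0182 ± 0.00877 in osteoblast-like cells (n = 16). S100a3 rose by 1.16 on the log2 scale after TMM, with a level of 0.0115 ± 0.00930 in LMP-like cells. The other S100 genes did not move one way, with 2 higher and 2 lower of the 5 that passed the low-count filter (median log2 change 0.30). In OBP-like cells 1 was higher, S100a3 (1.06, SE 0.33), and 2 were lower, S100b (-3.43, SE 0.12) and S100a16 (-0.31, SE 0.05).

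The size of the falls depended on the scaling. Osteoblast-like cells had Col1a1 at 448 ± 71.2 per 10,000, against 48.3 ± 15.6 in LMP-like cells. Scaling by library totals in place of TMM moved every log2 change of that comparison down by about 0.50 and left 19.3% of called genes higher, against 47.5% with TMM, and in OBP-like cells 23.2% against 47.4%. All 6 calls and directions held under it, with S100a1 at 0.89 in osteoblast-like cells.

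The low levels of the osteogenic classes were also set against free RNA, measured by the leukocyte gene Tyrobp. If all Tyrobp of osteoblast-like cells were free RNA with the makeup of the whole pool, the free share would be a median of 19.3% of the S100a4 level (up to 37.4% in a pool), 17.0% of the S100a6 level (up to 41.9%) and 3.6% to 9.03% of the levels of the other 4 genes. In Ocy-like cells it was 24.9% for S100a4 (up to 48.2%) and 2.24% to 9.70% for the others, and in OBP-like cells 4.79% to 8.86% for all 6. Every measured level was above the free level in 16 of 16 pools. With the adipogenic gene Adipoq in place of Tyrobp the share was 19.5% for S100a4 and 21.1% for S100a6 in osteoblast-like cells and 23.3% for S100a4 in Ocy-like cells. Tyrobp and Adipoq are also in the panels that left cells high for them out of these classes, so the shares can be too low.

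**Figure D2:**
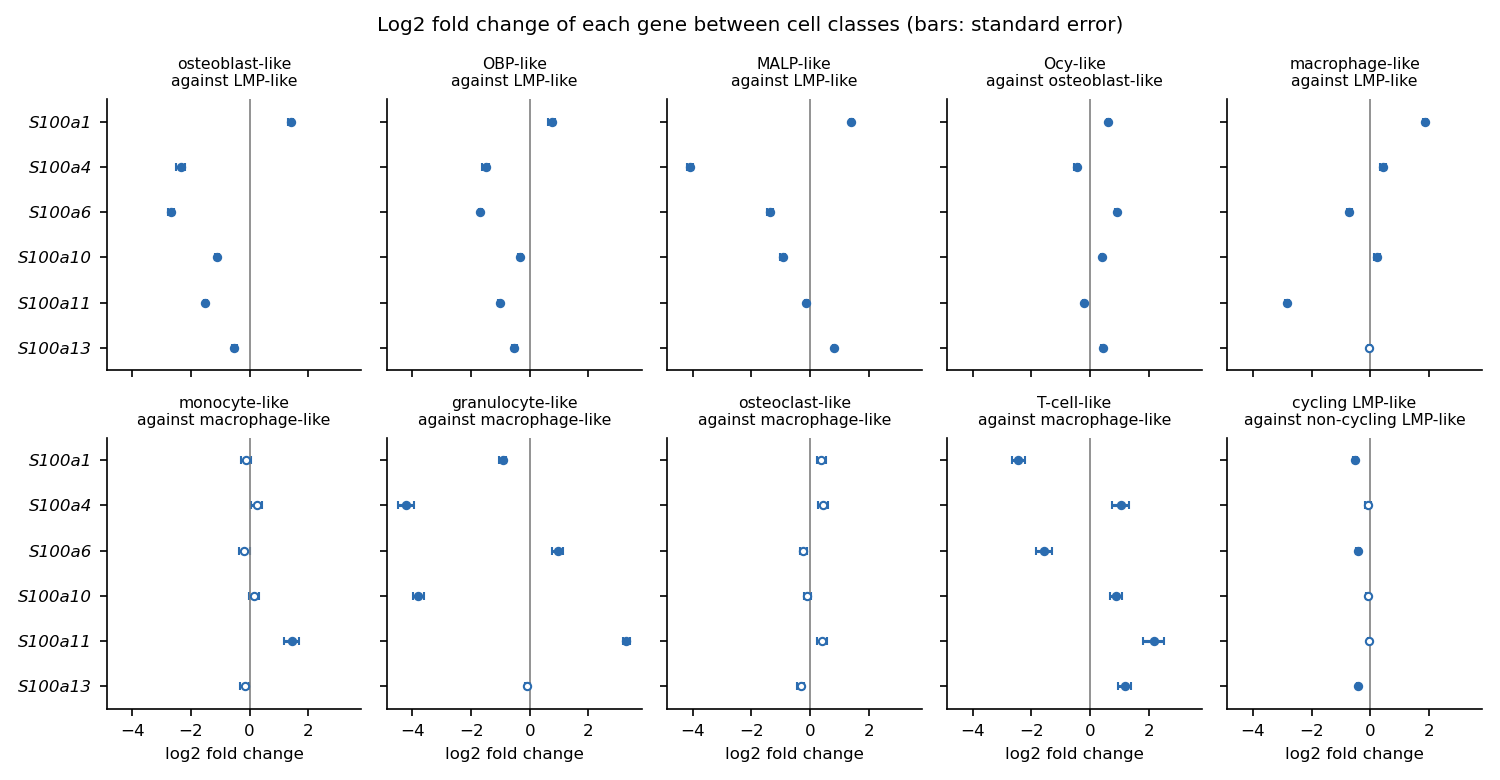
Log2 fold change of each gene (x axis, fitted by edgeR, bars of 1 standard error) in 10 comparisons of cell classes, with filled points past the threshold of 0.05 on the adjusted p and open points not. S100a1 points right and the other genes left in the osteoblast-like and OBP-like panels, and S100a4 reaches -4.07 in MALP-like and -4.22 in granulocyte-like cells.

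In the adipogenic arm the 6 genes split. Against LMP-like cells, MALP-like cells had S100a4 16.8-fold lower (log2 change -4.07, SE 0.10), S100a6 2.58-fold lower (-1.37, SE 0.11) and S100a10 1.91-fold lower (-0.93, SE 0.08), whereas S100a1 was 2.66-fold higher (1.41, SE 0.06) and S100a13 1.77-fold higher (0.82, SE 0.04). Each of these held in 16 of 16 pools, and larger changes than that of S100a4 were seen in 0.724% of 11881 genes. S100a11 had a log2 change of -0.12 (SE 0.05), although its level was higher in MALP-like cells in 12 of 16 pools. All 6 were called by edgeR, beside 73.3% of genes, but the call of S100a11 (adjusted p = 0.0495) was lost under 7 alternatives, among them leaving out pool 13 (-0.07) or pools 1 and 2 (-0.09), and its sign turned to 0.12 with library totals, where 72.3% of called genes were higher against 49.2% with TMM.

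Of the partner genes, 4 were higher and 20 lower in MALP-like cells out of 25 tested, among them Anxa2 (-1.27, SE 0.07), Cacybp (-0.90, SE 0.06), Myh9 (-0.85, SE 0.06), Ahnak (-0.66, SE 0.07) and Anxa1 (-0.20, SE 0.06). TMM moved the log2 changes of this comparison down by about 0.24. The level of Anxa1 was higher in MALP-like cells in 9 of 16 pools (mean 7.09 against 7.01). Of 4 other S100 genes tested, 1 was called, S100a16, which was higher (0.27, SE 0.07). The S100a4 level of MALP-like cells was low enough to compare with free RNA in the droplets. If all Ibsp of MALP-like cells, a gene of bone-forming cells, were free RNA with the makeup of the whole pool, S100a4 would be at a median of 51.8% of its measured level, and the measured level was above it in 12 of 16 pools. For the other 5 genes that share had a median of 2.83% to 7.77%, and the measured level was above in 16 of 16 pools. With gates 1.5 times higher the S100a4 mean of MALP-like cells was 0.361 in place of 0.543.

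In cells with osteocyte markers, 4 of the 6 genes were higher again. These cells could also pass the osteoblast-like gate. Their summed osteoblast-like panel was 182 per 10,000, against 390 in osteoblast-like cells. Ocy-like cells had S100a6 1.87-fold higher than osteoblast-like cells (log2 change 0.90, SE 0.06), S100a1 1.53-fold (0.61, SE 0.05), S100a13 1.35-fold (0.43, SE 0.05) and S100a10 1.33-fold higher (0.41, SE 0.04), each in 16 of 16 pools. S100a4 was 1.38-fold lower (-0.46, SE 0.09), in 13 of 16 pools, and S100a11 1.17-fold lower (-0.22, SE 0.04), in 11 of 16. All 6 were called by edgeR, beside 52.1% of 10609 genes (24.8% higher), and the increase of S100a6 was exceeded by 3.79% of genes in size. Without the pool as a block 3 members were called, S100a1, S100a6 and S100a10, beside 3150 genes, against 5527 genes with it. With library totals 76.6% of called genes were higher, against 47.5% with TMM, and the call of S100a11 was lost at a log2 change of -0.08.

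Of 25 partner genes, 10 were higher and 9 lower in Ocy-like cells. Ahnak (0.59, SE 0.03) and Anxa2 (0.53, SE 0.04) rose together with S100a10, whereas Myh9 (-0.13, SE 0.05) and Cacybp (-0.12, SE 0.04) were slightly lower after TMM and Anxa1 was not called (-0.01, SE 0.09). TMM moved the log2 changes of this comparison down by about 0.15. The levels of Myh9 and Cacybp were higher in Ocy-like cells in 12 and 10 of 16 pools. Of 4 other S100 genes tested, S100a3 (0.60, SE 0.14) and S100a16 (0.25, SE 0.04) rose and none fell.

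Macrophage-like cells differed from LMP-like cells in 5 of the 6 genes, as they did in most genes tested. Against LMP-like cells of the same pools, S100a1 was 3.66-fold higher (log2 change 1.87, SE 0.07) and S100a11 7.11-fold lower (-2.83, SE 0.06), each in 16 of 16 pools with no overlap of the ranges. S100a4 was 1.35-fold higher (0.43, SE 0.10; 13 of 16 pools), S100a10 1.18-fold higher (0.23, SE 0.09; 10 of 16 pools) and S100a6 1.64-fold lower (-0.71, SE 0.09; 16 of 16 pools). edgeR called 5 members, beside 85.4% of 11847 genes, and S100a13 was not called (-0.03, SE 0.05, adjusted p = 0.519). Between these lineages 97.5% of genes had a larger change than S100a13. The call of S100a10 was lost with library totals (0.13) and in the fit of all classes together (0.09), and the latter also lost that of S100a4 (0.27).

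S100b (-4.19, SE 0.16) and S100a16 (-3.67, SE 0.10) were far lower in macrophage-like cells, where their levels were 0.0212 ± 0.0134 and 0.0795 ± 0.0365 (n = 16). S100a8 had a log2 change of 2.04 (SE 0.36) and was called, at trace levels that ran from 0.00510 through a median of 0.0530 to 1.56 over pools in LMP-like and from 0.0163 through 0.388 to 0.904 in macrophage-like cells, both highest in pool 18. Granulocyte-like cells had 869 of it, and the part of free granulocyte RNA in this change was not tested. Of the 4 other S100 genes that passed the filter, 2 were called higher and 2 lower. Partner genes were split, with 12 higher and 11 lower of 25, among them Ahnak higher (1.28, SE 0.08) and Anxa1 (-1.28, SE 0.12), Anxa2 (-0.77, SE 0.07), Myh9 (-0.98, SE 0.08) and Cacybp (-0.77, SE 0.09) lower.

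Stromal RNA free in the droplets could add to the stromal genes of leukocytes, and Col1a1 served as its measure. Col1a1 is also in the stromal panel that left cells high for it out of the leukocyte classes, so the shares can be too low. If all Col1a1 of macrophage-like cells were free RNA, the free share would be a median of 26.6% of the S100a11 level (10.7% to 62.5% over pools) and 2.48% to 5.40% of the levels of the other 5 genes. The measured levels were above the free level in 16 of 16 pools for every gene. In granulocyte-like cells the free share was 76.3% for S100a4 (up to 189%) and 69.6% for S100a10 (up to 185%), and the measured level was above it in 7 of 10 pools for each. S100a6 and S100a11 of granulocyte-like cells, with free shares of 3.5% and 2.60%, stood clear of it in 10 of 10 pools.

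**Figure D3:**
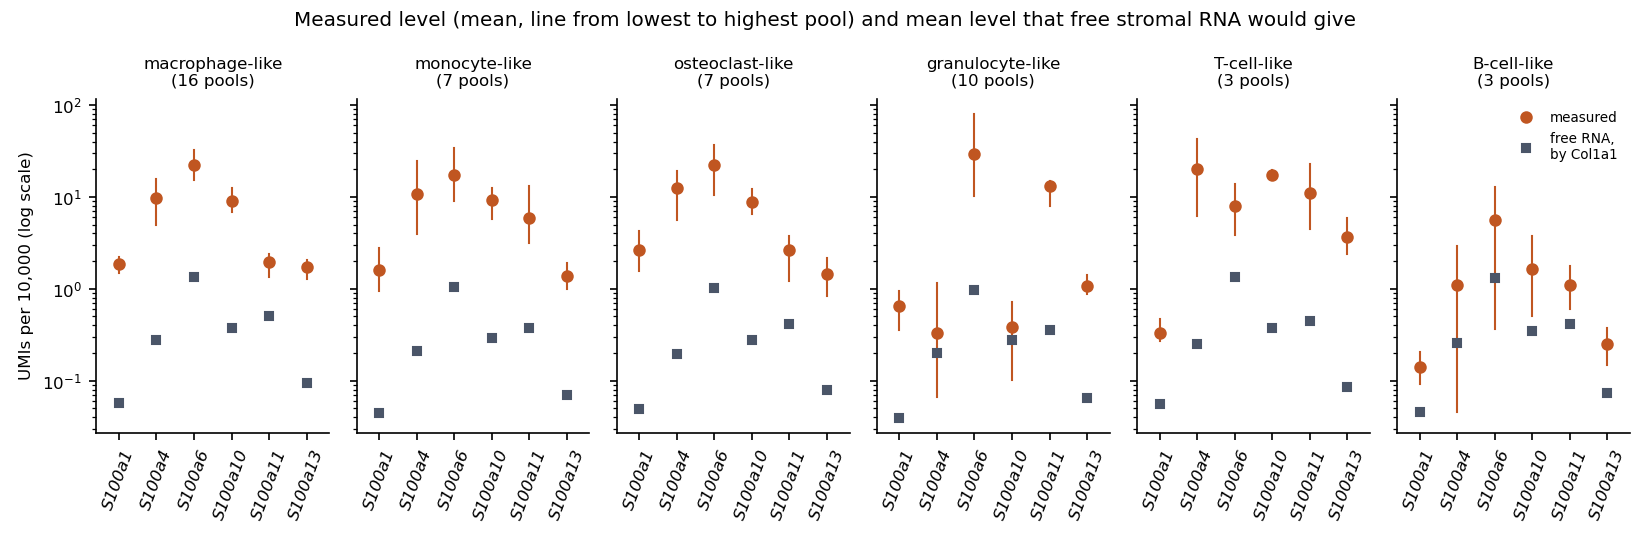
Measured level of each gene (orange, mean over pools with a line from the lowest to the highest pool) and the mean level that free stromal RNA would give (grey squares, from Col1a1) in 6 leukocyte classes, in UMIs per 10,000 on a log axis. S100a4 and S100a10 of granulocyte-like cells lie close to the free level, while all 6 genes of macrophage-like cells lie above it.

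Granulocyte-like cells differed from macrophage-like cells in 5 of the 6 genes, as they did in most genes tested. Over 10 pools, S100a4 was 18.6-fold lower (log2 change -4.22, SE 0.26), S100a10 13.9-fold lower (-3.80, SE 0.20) and S100a1 1.90-fold lower (-0.93, SE 0.11), and S100a11 was 9.79-fold higher (3.29, SE 0.12), each in 10 of 10 pools. S100a6 was 1.93-fold higher (0.95, SE 0.20; 8 of 10 pools). edgeR called these 5, beside 71.5% of 7506 genes, and did not call S100a13 (-0.08, SE 0.09, adjusted p = 0.709), although its level was lower in 10 of 10 pools. DESeq2 called S100a13 as well (-0.21, adjusted p = 0.0424), as did edgeR with the scaling of DESeq2 (-0.22, adjusted p = 0.0390). The granulocyte genes S100a8 and S100a9 were at 869 ± 169 and 1142 ± 159 per 10,000 in this class. With library totals S100a6 lost its call (0.34, adjusted p = 0.0671), S100a13 gained one (-0.70), and 21.2% of called genes were higher against 47.4% with TMM.

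Of 24 partner genes, 8 were higher and 13 lower there, with Anxa1 14.9-fold higher (3.90, SE 0.15), Myh9 higher (1.77, SE 0.10), Cacybp higher (0.33, SE 0.11) and Ahnak 20.04-fold lower (-4.32, SE 0.19), while Anxa2 was not called (-0.13, SE 0.12). TMM moved the log2 changes of this comparison up by about 0.61. The level of Cacybp was lower in granulocyte-like cells in 8 of 10 pools (mean 0.607 against 0.712). S100a8 (11.46, SE 0.24) and S100a9 (11.87, SE 0.28) were the other S100 genes that passed the filter.

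Monocyte-like cells, marked by Ccr2, Ear2 and class II genes, differed from macrophage-like cells in S100a11. It was higher in 7 of 7 pools (3.11 to 13.1, against a mean of 2.14 ± 0.251 in macrophage-like cells of the same pools), with a log2 change of 1.43 (SE 0.25, adjusted p = 0.00157 by edgeR), and 13.1% of 9175 genes were called. Without pool 18, the highest, the change was 1.20. The other 5 members had log2 changes between -0.18 and 0.23 and were not called. Of 3 other S100 genes tested, S100a8 (4.05, SE 0.53) and S100a9 (3.38, SE 0.67) were higher, for which the part of free granulocyte RNA was likewise not tested, and 3 partner genes were higher and 3 lower of 24, among them Cacybp (0.64, SE 0.18). Library totals left 30.8% of called genes higher, against 51.5% with TMM.

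Osteoclast-like cells gave no call of a member. The log2 changes against macrophage-like cells of 7 pools ran from -0.32 (SE 0.13) for S100a13 to 0.44 (SE 0.17) for S100a4, and edgeR called 0 of 6 (lowest adjusted p = 0.0774), beside 19.3% of 8849 genes. At an unadjusted p under 0.05, 4 of the 6 would pass, and DESeq2 also called 0. Between 1 and 5 members were called under 5 of the alternatives, 5 of them with gates 1.5 times higher. Over all alternatives the number of genes called ran from 1373 to 3238, against 1708. Of 24 partner genes, 4 were higher and 5 lower, among them Anxa1 higher (0.44, SE 0.15) and Ahnak lower (-0.34, SE 0.11), and neither of the 2 other S100 genes tested was called.

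T-cell-like cells were measured in 3 pools. S100a11 was 4.48-fold higher than in macrophage-like cells (log2 change 2.16, SE 0.34), S100a13 2.26-fold (1.18, SE 0.21), S100a4 2.05-fold (1.04, SE 0.27) and S100a10 1.85-fold higher (0.89, SE 0.20), and S100a1 was 5.43-fold (-2.44, SE 0.24) and S100a6 2.94-fold lower (-1.56, SE 0.27). All 6 were called by edgeR, beside 53.1% of 8890 genes, and each direction was seen in 3 of 3 pools. In pools 6, 8 and 14 the S100a4 level was 6.26, 42.3 and 11.0, which overlaps with macrophage-like cells, and the S100a11 level was 4.42, 22.9 and 5.94. Pool 8 was also the highest for S100a1 at 0.465 (against 0.267 and 0.270), S100a6 at 13.7 (6.34 and 3.85), S100a10 at 19.5 (16.5 and 15.6) and S100a13 at 5.84 (2.87 and 2.40). The share of all genes that were highest in pool 8 is not given here, so this cannot be called particular to the members. Without pool 8 the log2 change was 1.62 (SE 0.22) for S100a11 and 0.63 (SE 0.19) for S100a4, both called. Of the 8 leukocyte panel genes, Tyrobp (3.70, against 0.134 in pool 6 and 0.101 in pool 14) and Fcer1g (6.28, against 0.434 and 0.248) were highest in pool 8. These genes signal in myeloid and natural killer cells. Laptm5 (7.27, against 5.74 and 5.79) and Cd53 (6.72, against 4.59 and 2.79) were highest there as well. Ptprc (5.43, against 3.41 and 6.22), Lcp1 (5.37, against 4.11 and 6.38), Coro1a (8.04, against 9.08 and 8.65) and Arhgdib (6.81, against 7.18 and 8.64) were not. The panel of 8 T-cell markers summed to 44.6, 58.1 and 48.5 in pools 6, 8 and 14, that of 8 macrophage markers to 0.668, 0.592 and 0.574, and that of 8 monocyte markers to 9.22, 14.0 and 1.59. The panel of 10 granulocyte markers, at 0.651, 1.52 and 0.236, and that of 6 basophil and mast cell markers, at 0.0501, 2.01 and 0, were also highest in pool 8. Which cells carry these genes, and their part in the result, were not tested. The call of S100a4 was lost without the block (adjusted p = 0.115). That of S100a10 was lost without pool 14 (0.81, adjusted p = 0.122). Of 24 partner genes, 5 were higher and 12 lower, with Myh9 (1.18, SE 0.20) and Cacybp (0.67, SE 0.18) higher and Ahnak (-2.35, SE 0.21) and Anxa1 (-1.37, SE 0.27) lower. Neither of the 2 other S100 genes tested, S100a8 and S100a9, was called.

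Within LMP-like cells, 3 of the members were lower in cycling cells. Cycling LMP-like cells (1257 cells, marked by Mki67, Top2a and similar genes) were compared with 9842 non-cycling cells over 15 pools. S100a13 was 1.34-fold lower (log2 change -0.42, SE 0.05) in 15 of 15 pools, S100a1 1.42-fold lower (-0.51, SE 0.08) in 14 and S100a6 1.33-fold lower (-0.41, SE 0.07) in 14. S100a4, S100a10 and S100a11 had log2 changes between -0.08 and -0.03 and were not called. The 3 calls stood beside 48% of 11151 genes called by edgeR (24.6% lower). S100b (-0.69, SE 0.10) and S100a16 (-0.67, SE 0.06), of 4 other S100 genes tested, were lower as well, and of 24 partner genes 8 were higher, among them Cacybp (0.38, SE 0.06), and 6 lower, among them Ahnak (-0.40, SE 0.07).

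Some members differed between pools more than most genes. The biological coefficient of variation between pools, the spread that remains after counting error, was 43.1% for S100a6 and 40.7% for S100a4 in osteoblast-like cells, where the median over 10350 genes was 18.3%. For S100a1 in LMP-like cells it was 15.6%, against a median of 18.2% over 11489 genes. Without pools 1 and 2 these values were 29.6% for S100a6 and 39.5% for S100a4, with a median of 15.8% over 10440 genes, and in the same cells that of S100a13 was 20.3% in place of 36.3% and that of S100a11 16.6% in place of 28.0%. In OBP-like cells it was 17.1% in place of 35.9% for S100a13 and 16.1% in place of 28.7% for S100a1, and in Ocy-like cells 17.6% in place of 27.8% for S100a11. S100a4 had a spread above that of 96.2% of genes in macrophage-like cells and of 92.9% in MALP-like cells. Since pools differ in their mice, cultures and libraries together, these sources cannot be told apart.

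A pool that was high for a member in one class was often, but not always, high in another. The level in LMP-like cells was set against that in 4 other classes over the 16 pools, which makes 24 relations, with permutation p-values (100000 resamples, two-sided) adjusted by Benjamini-Hochberg. The raw permutation p of the relations called by r ran from 1e-05, the smallest that these resamples can give, to 0.0161. S100a11 was related in all 4, although the relation with macrophage-like cells lost its call with gates 1.5 times higher (r = 0.50): with OBP-like (Pearson r = 0.93, Spearman rho = 0.90, adjusted permutation p = 0.00012 and 0.00036), osteoblast-like (r = 0.81, rho = 0.83, adjusted permutation p = 0.00012 and 0.0018), MALP-like (r = 0.85, rho = 0.89, adjusted permutation p = 0.00048 and 0.00036) and macrophage-like cells (r = 0.72, rho = 0.71, adjusted permutation p = 0.0054 and 0.0077). Without the 2 pools farthest from the median LMP-like level, these r were 0.87, 0.72, 0.83 and 0.63. With the free level subtracted they were 0.92, 0.81, 0.86 and 0.57, all still called. That free level was measured by Tyrobp in stromal classes and by Col1a1 in macrophage-like cells. For all genes the median r was 0.64 with OBP-like, 0.52 with osteoblast-like, 0.59 with MALP-like and 0.49 with macrophage-like cells, so that levels of most genes moved together within a pool.

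S100a13 was likewise related in all 4 classes, most closely with MALP-like (r = 0.84, rho = 0.77, adjusted permutation p = 0.00048 and 0.0036) and macrophage-like cells (r = 0.82, rho = 0.74, adjusted permutation p = 0.00048 and 0.0058), with 0.72 and 0.80 without the 2 farthest pools. Its relations with OBP-like (r = 0.63, rho = 0.67, adjusted permutation p = 0.017 and 0.014) and osteoblast-like cells (r = 0.63, rho = 0.57, adjusted permutation p = 0.017 and 0.047) fell to 0.48 and 0.40 without the farthest pools. Without pools 1 and 2 they were 0.59 and 0.51 and no longer called. Over all 16 pools, 48.0% of genes had a lower r than S100a13 with OBP-like cells and 67.1% with osteoblast-like cells.

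S100a6 kept its order of pools across the osteogenic classes, with r = 0.79 (rho = 0.78, adjusted permutation p = 0.0014 and 0.0036) for OBP-like and r = 0.75 (rho = 0.75, adjusted permutation p = 0.0026 and 0.0052) for osteoblast-like cells, and 0.70 and 0.72 without the farthest pools. With the free level by Tyrobp subtracted in both classes, these r were 0.75 and 0.67 and still called. It was not called for MALP-like (r = 0.30, rho = 0.25, adjusted permutation p = 0.34 and 0.46) or macrophage-like cells (r = 0.36, rho = 0.21, adjusted permutation p = 0.24 and 0.47). S100a4 was related between LMP-like and macrophage-like cells (r = 0.62, rho = 0.65, adjusted permutation p = 0.021 and 0.019, and 0.69 without the farthest pools), but within the osteogenic lineage r was 0.29 (rho = 0.26) and 0.14 (rho = 0.24), with adjusted permutation p of 0.34 and 0.65 for r and 0.46 for each rho. Its relation with MALP-like cells was not called (r = 0.54, rho = 0.49, adjusted permutation p = 0.054 and 0.092), and that with macrophage-like cells was lost without pools 1 and 2 (r = 0.57). With the free level subtracted, the r of S100a4 was 0.29 with MALP-like and 0.60 with macrophage-like cells.

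S100a10 was related with OBP-like cells by r (0.59, adjusted permutation p = 0.030) but not by rho (0.51, adjusted permutation p = 0.083), and r fell to 0.47 without the farthest pools. Over all pools, 43.0% of genes had a lower r than S100a10 between these classes. S100a10 had r = 0.30 (rho = 0.28) with osteoblast-like, 0.49 (rho = 0.36) with MALP-like and -0.18 (rho = -0.22) with macrophage-like cells, with adjusted permutation p from 0.0845 to 0.57. S100a1 was related with MALP-like cells (r = 0.71, rho = 0.54, adjusted permutation p = 0.0071 and 0.067), a relation that rests on 2 pools since r was 0.33 without them. With OBP-like cells its r was -0.36 (rho = -0.21, adjusted permutation p = 0.24 and 0.47), lower than for all but 0.126% of 8731 genes. It was -0.50 without the 2 pools farthest from the median LMP-like level, whereas without pools 1 and 2, which are high for S100a1 in OBP-like cells (1.47 and 1.38 against 0.515 to 0.852), it was 0.24. With osteoblast-like and macrophage-like cells r was 0.10 (rho = -0.18) and 0.02 (rho = -0.05), with adjusted permutation p from 0.52 to 0.94, and the sign turned without the 2 farthest pools (-0.55 and -0.18).

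**Figure D4:**
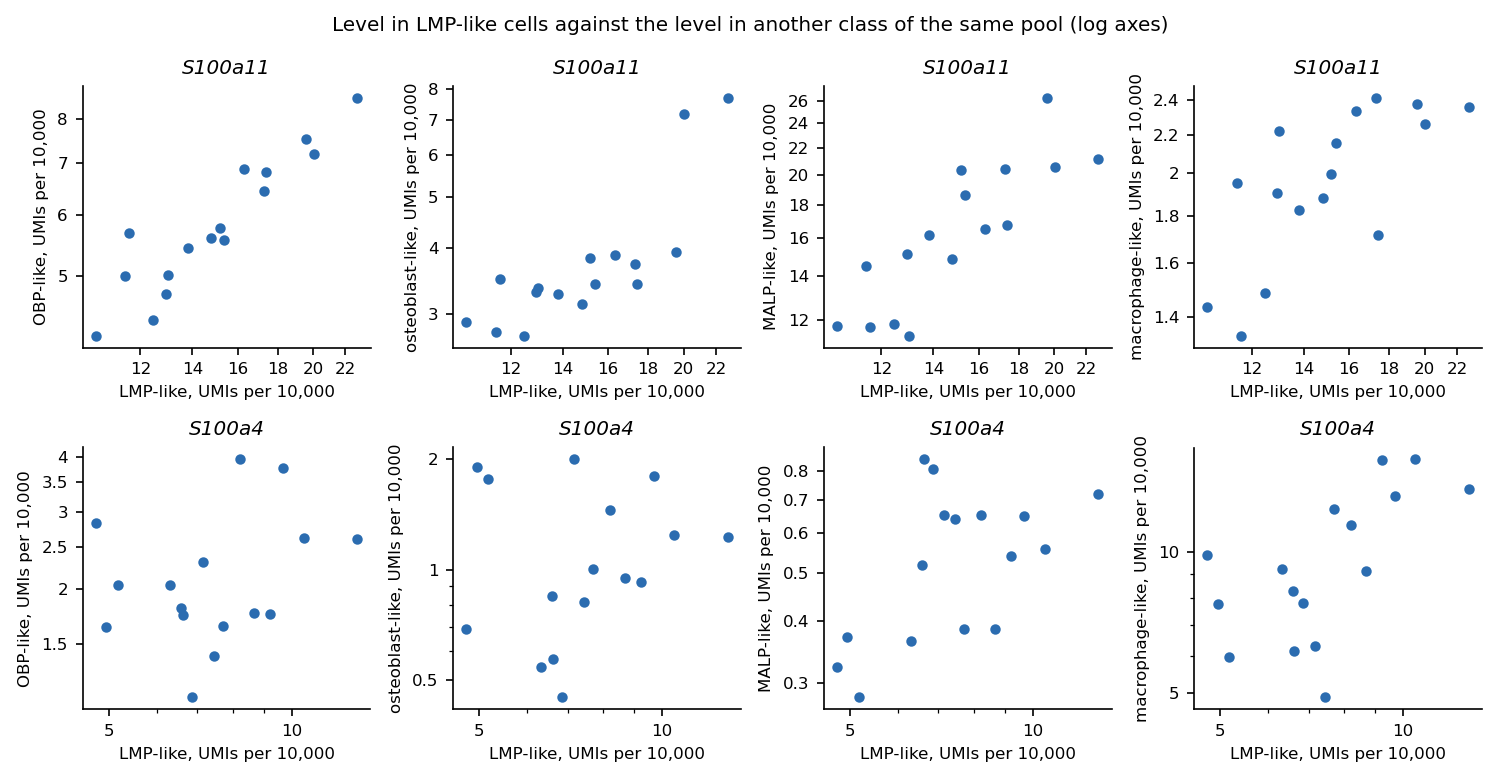
Level of S100a11 (top) and S100a4 (bottom) in LMP-like cells (x axis) against OBP-like, osteoblast-like, MALP-like and macrophage-like cells (y axes) of the same pool, in UMIs per 10,000 on log axes, with 1 point for each of 16 pools. S100a11 rises along every panel (r from 0.72 to 0.93, the lowest with macrophage-like cells, a relation that was not called with gates 1.5 times higher), while S100a4 does so with macrophage-like cells (r = 0.62) and not with osteoblast-like cells (r = 0.14).

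S100a4 with S100a6, which have S100a5 between them, and the neighbours S100a1 with S100a13 were compared over pools within 3 classes. S100a10 and S100a11 were not. In these 6 relations tested by permutation, S100a4 and S100a6 were related in osteoblast-like cells (r = 0.69, rho = 0.67, adjusted permutation p = 0.015 and 0.032, and 0.64 without the 2 farthest pools) but not in LMP-like (r = 0.11, rho = -0.04) or MALP-like cells (r = -0.13, rho = 0.03), with adjusted permutation p from 0.82 to 0.93. Without pools 1 and 2 the relation in osteoblast-like cells was no longer called (r = 0.59, adjusted p = 0.059). S100a1 and S100a13, with their overlapping promoter windows, had r = 0.03 in LMP-like (rho = -0.16), 0.54 in osteoblast-like (rho = 0.54) and 0.34 in MALP-like cells (rho = 0.26), none of them called (adjusted permutation p from 0.105 to 0.92). Over class means the pair also differed, since S100a1 rose and S100a13 fell from LMP-like to osteoblast-like cells, while both were higher in MALP-like than in LMP-like cells and higher in Ocy-like than in osteoblast-like cells.

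Over the 7 classes with at least 8 pools, the class means of the members gave no common pattern, as a description with 7 points that share libraries. The closest pair was S100a4 and S100a10 (r = 0.77 of log2 levels), and S100a1 and S100a11 lay farthest apart (r = -0.52). Among 4844 genes, the most like S100a6 were Tuba1b (r = 0.97), Flna (0.95), Rhoa (0.95), Clic1 (0.94) and Pfn1 (0.93). The most like S100a4 were Nhp2 (0.94), Eif4b (0.94), Emp3 (0.93), Rps14 (0.92) and Plec (0.91), and the most like S100a10 were Cand1 (r = 0.998), Rad23b (0.997), Cyb5r3 (0.99), Elp5 (0.99) and Lmna (0.98). S100a11 was most like Magoh (0.99), S100a13 like Zfp638 (0.99) and S100a1 like Med13 (0.95).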

How the data were processed

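Single-cell RNA was measured in 16 pools of BMSC-OBs, each sequenced in a pair of runs. The deposited matrices hold UMI counts per gene and cell barcode that the authors made with Cell Ranger 5.0.0 on mm10 and filtered for cells, with no normalization. The counts of run HGYVNCCX2 were used, and the other run, which read 98.2% of the same barcodes again, served as an alternative. Cells with 400 to 6200 genes, at most 10% mitochondrial UMIs and at most 20% and 15% of Rpl and Rps UMIs were kept. No doublet caller was run. Cells with markers of stroma and leukocytes were left out instead. So were cells past gates of both the LMP-like or MALP-like and the osteogenic classes, or of unlike leukocyte groups. Cells past several gates within a group were kept in a single class. There Ocy-like came before osteoblast-like, and osteoblast-like before OBP-like. Osteoclast-like came before macrophage-like and monocyte-like. Otherwise the panel farther above its threshold decided. A cell entered a class when its marker panel passed a threshold in UMIs per 10,000 that was set after the panel values were seen, and no deposited annotation was used. Cells near a threshold can fall on either side, so gates 1.5 times higher and lower were tried.

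Counts were summed by pool and class and tested with edgeR 4.0.16 (R 4.3.3; TMM, filterByExpr, quasi-likelihood F-test, pool as a block, Benjamini-Hochberg threshold of 0.05). DESeq2 1.42.0 was an alternative. Python 3.11.15 with numpy 2.4.6, pandas 2.3.3 and scipy 1.17.1 made levels and correlations on log2 values. Classes of a pool share its mice and droplets, so the pool pairs them: the correlation over genes of same-pool deviations had medians from 0.298 to 0.635 by comparison, with single values from -0.02 to 0.828. The scripts were tested on simulated counts. Likeness used log2 of the class mean level plus 0.1. Levels are shares of UMIs, so a class rich in a few messages has lower levels of all others. Short reads at transcript ends do not separate isoforms. The edgeR p-values set a class difference against how that difference varies from pool to pool. The permutation p-values set r or rho against values from shuffled pools.

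Named were the 6 members, the other 11 S100 genes as counts with values where the absolute log2 change was at least 1 or the call was described, 32 partner genes as counts with values for Anxa1, Anxa2, Ahnak, Myh9 and Cacybp, and the genes most like a member. Values of the partner gene Fgf1 were given as well, for osteoblast-like and OBP-like cells only. The members and lists were chosen with earlier results of these data known.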

Additional observations from a re-analysis of the deposited data

Results flagged for a closer look

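In 18 groups of 7 to 10 pools, the highest or lowest level of a member was compared with its nearest neighbour by Dixon's ratio at the 95% level, and 5 stood apart. The rate of about 1 in 20 by chance holds for independent groups with normally distributed levels. These groups share pools and libraries, so the count cannot be set against that rate. Pool 18 gave 4 of them. In its granulocyte-like cells S100a4 was at 1.15, with the next pool at 0.582 and the lowest at 0.0672, and S100a6 was at 79.5, with the next at 46.5 and the lowest at 10.2. In its monocyte-like cells S100a6 was at 33.7, with the next at 18.8 and the lowest at 8.96, and S100a11 was at 13.1, with the next at 7.32 and the lowest at 3.11. In granulocyte-like cells of pool 9, S100a11 was at 7.99, below the next pool at 11.7 and the highest at 14.97. These are single pools, and what sets them apart was not tested.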

How the results depend on the processing

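Alternatives were other normalization, DESeq2, no low-count filter, no replicate block, the other run, gates 1.5 times higher or lower, no limits on genes per cell, leaving out pool 13 and a joint fit of all classes. Library totals, leaving out pools 1 and 2, pool 18 or single T-cell pools, in fits, levels and spread, Ibsp, Tyrobp and Adipoq as measures of free RNA and relations with the free level subtracted were added after seeing the data. Of 702 log2 changes of members, 655 kept direction and side of the threshold, 18 lost and 20 gained a call and 9 turned sign. The signs that turned were S100a11 in MALP-like cells (0.12, library totals), S100a13 in macrophage-like cells (0.0039, gates higher; 0.063, no limits; 0.036, without pool 13; 0.011, without pools 1 and 2), S100a1 in monocyte-like cells (0.0055, gates higher), S100a10 in osteoclast-like cells (0.12, gates higher; 0.058, gates lower) and S100a10 in cycling cells (0.047, gates lower).

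Genes called moved past 1.5 times without the replicate block in Ocy-like cells (3150, against 5527), where 3 members were then called, and it moved no other count of genes past that. They also moved with gates higher in monocyte-like cells (740, against 1204) and with the joint fit in monocyte-like (3979), granulocyte-like (8450, against 5367), osteoclast-like (3238, against 1708) and T-cell-like cells (7100, against 4717). Members called in osteoclast-like cells were 3 with no filter, 5 with gates higher (in fewer pools), 1 with gates lower, 2 in the joint fit and 3 with library totals. Genes called in that comparison ran from 1373 to 3238 over all alternatives. With gates higher the level of S100a4 in MALP-like cells was 0.361 and that of S100a11 in osteoclast-like cells 3.76.

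Of 150 values of r, 138 held. Subtracting the free level changed no call, and it turned the sign of S100a1 with macrophage-like cells (-0.0059) and of S100a4 with S100a6 in MALP-like cells (0.036). The LMP-like to MALP-like relation of S100a4 was called with the other run (r = 0.56). The LMP-like to macrophage-like relation of S100a11 was lost with gates higher (r = 0.50). Without pools 1 and 2 the calls of S100a4 with macrophage-like (r = 0.57), S100a13 with OBP-like (0.59) and osteoblast-like cells (0.51) and S100a4 with S100a6 in osteoblast-like cells (0.59) were lost, with 14 pools left, and the sign turned for S100a1 with OBP-like cells (0.24) and S100a4 with S100a6 in MALP-like cells (0.43). That last sign also turned with gates higher (0.023), and that in LMP-like cells without pool 13 (-0.069). Of the values that turned sign, S100a11 in MALP-like cells was the only one called before. The causes were not tested. The rare classes are limited by their few cells and pools, and the T-cell-like values rest on 3 pools.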
